A study of Mus musculus with 18 samples.

Results

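The genes described here encode creatine kinases and glycolytic enzymes that exist as several isoforms, of which some are made in most cells and others mainly in muscle. They are the creatine kinase genes *Ckm*, *Ckb* and *Ckmt2*, the glycogen phosphorylase gene *Pygm*, the phosphofructokinase gene *Pfkm*, the phosphoglycerate mutase genes *Pgam1* and *Pgam2*, the enolase genes *Eno1* and *Eno3*, and the lactate dehydrogenase gene *Ldha*. The 10 genes were chosen by symbol. Of these, 9 had values among the 19153 genes of the dataset, and all 9 were among the 17672 genes tested. *Ckmt2*, the sarcomeric mitochondrial creatine kinase, had no expression value analysed here. *Ckm* and *Pgam2* passed the filter on low counts only through the differentiated groups, in which they are high.

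Muscle spends ATP in short bursts and restores it from phosphocreatine through creatine kinase, and from glycogen and glucose through glycolysis. Cytosolic creatine kinase is a dimer of M and B subunits, and the shift from the B to the M subunit, encoded by *Ckb* and *Ckm*, is a classical sign of myoblast differentiation. In mature muscle, enolase shifts from the alpha form (*Eno1*) to the beta form (*Eno3*) and phosphoglycerate mutase from the brain form (*Pgam1*) to the muscle form (*Pgam2*). *Pygm* and *Pfkm* encode the muscle isoforms of the enzymes that release glucose-1-phosphate from glycogen and that catalyse the committed step of glycolysis. *Ldha* encodes the M subunit of lactate dehydrogenase, which is common in muscle but also in proliferating cells.

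RNA was sequenced from immortalized mouse myoblasts derived from a p53 knockout mouse, so that the p53 knockout was shared by all groups, controls included. LAP2alpha knockout (KO) myoblasts had been made with CRISPR-Cas9 and the wildtype (WT) controls with the Cas9 plasmid alone, and both were sorted as pools of transfected cells rather than grown from a single clone. Each genotype was sampled while proliferating in 20% serum (Prol), at confluence in the same medium (D0, the start of differentiation), and on day 2 after the change to 5% serum (D2). The 6 groups had 3 replicate libraries each, 18 in all, and because the labels do not say whether replicates came from separate cultures, p-values measure only the spread between these libraries. The libraries held 26437823 to 41619016 expected counts. Values are in CPM, expected counts per 1000000 of the scaled library total, and a count of 3 corresponds to 0.0651 to 0.119 CPM.

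*Tmpo*, the gene that encodes LAP2α together with other LAP2 isoforms, ranged in Prol from 275 to 315 CPM for WT and from 228 to 260 for KO, and the ranges overlapped at D0 (239 to 302 and 191 to 259) and at D2 (106 to 157 and 94.5 to 157). These gene values do not separate LAP2α from the other isoforms and therefore do not check the knockout. Of the myoblast markers, *Myf5* was at 20.5 to 27.4 CPM in Prol of both genotypes and *Myod1* at 0.736 to 5.88, while *Pax7* was not analysed here. The 4 measured myoblast markers together summed to 28.4 to 35.3 CPM in WT Prol and 29.4 to 38.8 in KO Prol. At D2 this sum was higher, at 335 to 532 CPM in WT and 225 to 260 in KO, so it does not mark undifferentiated myoblasts alone. The summed level of 6 markers of differentiating muscle, among them *Myog* and *Acta1*, was in Prol 2.36 to 14.1 CPM for WT and 3.15 to 12.5 for KO, against 2653 to 5369 in WT D2 and 1577 to 2007 in KO D2. The 5 measured fibroblast markers also had higher sums at D2, with 134 to 223 CPM in WT and 147 to 345 in KO against 36.1 to 73.9 in Prol. Sums of macrophage, endothelial, adipocyte, neuron and glia markers stayed at 8 CPM or lower in every library, and 2 cardiomyocyte markers summed to 2.31 to 11.8 CPM at D2. The part of other cells in the results was not tested. In bulk RNA, fewer cells of a type and less RNA per cell cannot be told apart.

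Promoter windows are shown for 4 muscle isoform genes and for the ubiquitous counterparts of 2 of them, as the place where factors of the muscle programme could bear on the switch. The motif CAGCTG is a form of the E-box CANNTG, the element bound by myogenic factors such as MyoD and myogenin. Each window of 300 bases runs from 250 bases before to 50 after the transcription start in RefSeq on GRCm38.p6, 5′ to 3′ on the strand of the gene, and capitals mark each CAGCTG.
*Ckm*, chr7:19410844-19411143, plus strand: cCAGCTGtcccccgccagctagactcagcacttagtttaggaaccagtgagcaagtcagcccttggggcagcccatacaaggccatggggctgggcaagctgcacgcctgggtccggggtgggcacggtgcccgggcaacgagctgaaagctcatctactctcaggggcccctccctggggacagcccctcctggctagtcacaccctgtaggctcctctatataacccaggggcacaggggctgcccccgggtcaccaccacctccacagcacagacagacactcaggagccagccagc
*Pygm*, chr19:6384158-6384457, plus strand: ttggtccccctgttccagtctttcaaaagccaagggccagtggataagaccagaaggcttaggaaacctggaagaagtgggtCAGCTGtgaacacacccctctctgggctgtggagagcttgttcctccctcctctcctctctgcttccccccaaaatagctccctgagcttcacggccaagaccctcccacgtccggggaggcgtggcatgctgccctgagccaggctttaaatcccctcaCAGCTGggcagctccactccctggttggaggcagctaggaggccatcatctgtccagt
*Pgam2*, chr11:5803747-5804046, minus strand: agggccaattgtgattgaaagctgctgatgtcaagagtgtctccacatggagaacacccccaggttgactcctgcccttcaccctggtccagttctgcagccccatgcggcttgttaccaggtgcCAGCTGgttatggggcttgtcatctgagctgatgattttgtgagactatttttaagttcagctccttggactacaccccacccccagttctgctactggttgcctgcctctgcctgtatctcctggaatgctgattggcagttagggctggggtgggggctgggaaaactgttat
*Eno3*, chr11:70656926-70657225, plus strand: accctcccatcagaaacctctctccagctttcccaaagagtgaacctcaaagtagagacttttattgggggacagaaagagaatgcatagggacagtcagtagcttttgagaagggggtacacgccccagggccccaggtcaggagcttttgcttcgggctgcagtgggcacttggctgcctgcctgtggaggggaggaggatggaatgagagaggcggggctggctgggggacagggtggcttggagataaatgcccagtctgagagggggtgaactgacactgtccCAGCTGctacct
*Ckb*, chr12:111672289-111672588, minus strand: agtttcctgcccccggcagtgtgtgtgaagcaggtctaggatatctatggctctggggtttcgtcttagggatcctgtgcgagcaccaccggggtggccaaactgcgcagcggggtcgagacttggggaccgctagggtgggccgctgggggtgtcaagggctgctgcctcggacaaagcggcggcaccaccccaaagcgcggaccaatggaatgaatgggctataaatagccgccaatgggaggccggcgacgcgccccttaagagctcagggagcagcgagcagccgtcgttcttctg
*Pgam1*, chr19:41911621-41911920, plus strand: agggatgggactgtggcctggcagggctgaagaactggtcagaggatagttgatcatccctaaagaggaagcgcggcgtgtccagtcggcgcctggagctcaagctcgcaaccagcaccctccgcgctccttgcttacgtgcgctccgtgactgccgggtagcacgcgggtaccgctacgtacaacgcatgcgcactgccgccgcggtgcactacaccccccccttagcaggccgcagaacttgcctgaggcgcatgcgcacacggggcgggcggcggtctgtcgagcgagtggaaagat

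CAGCTG, which reads the same on both strands, occurred 2 times in the *Pygm* window and 1 time each in those of *Ckm*, *Pgam2* and *Eno3* and of *Ckmt2*, which is not printed. In *Ckm* it lay at the far edge of the window, at position -249 from the start. The windows of *Ckb* and *Pgam1*, the 3 windows of *Eno1*, the 2 of *Ldha* and the 4 of *Pfkm* held none. For comparison, 16.3% of all 32851 promoter windows held CAGCTG and 72.3% held CANNTG on either strand. CANNTG occurred 5 times in *Pgam2*, 4 in *Ckmt2*, 3 in *Pygm*, 2 in *Eno3*, 1 in *Ckm* and 0 in *Ckb* and *Pgam1*. It also occurred 2 times in the first *Eno1* window, 2 times in each *Ldha* window and up to 3 times in *Pfkm* windows. The motif of MEF2, another regulator of myogenesis, was also searched. It matched 1 time each in the windows of *Ckb* and *Pgam2*, in no other window of the members, and in 3.19% of all windows. The windows also differed in CpG content. The *Pgam1* window held 30 CG dinucleotides and that of *Ckb* 22, against 1 in *Pgam2*, 3 in *Eno3*, 4 in *Pygm* and 7 in *Ckm*, and the median over all windows was 7. CAGCTG was chosen with these sequences in view, and a match of either motif in a window is a description, not evidence of binding.

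Differentiation in WT myoblasts separated the members into those that rose and those that fell (see the plot of levels by library). Between Prol and D2, *Ckm*, *Pgam2*, *Pygm*, *Ckb* and *Eno3* rose and *Eno1*, *Pgam1* and *Ldha* fell, so that 8 of 9 members changed at an adjusted p-value under 0.05 from limma with Benjamini-Hochberg adjustment over all 17672 genes. Of all genes tested, 30.7% changed by this test, 16.6% upwards and 14.1% downwards. The same 8 members met a looser rule, hereafter the 1.5-fold rule (10 CPM or more in a library, a linear fold change above 1.5 and an unadjusted p-value under 0.05), as did 23.6% of all genes. With the absolute log2 change above 1.5 that the methods of the study give in place of the linear fold, hereafter the log2 rule, 6 of 9 members were left (without *Eno1* and *Eno3*), and 7.68% of all genes. The study's gene number for WT D2/Prol was closer to the 4167 by the 1.5-fold rule than to 1358 by the log2 rule. The median log2 fold change of the members was 0.85, against -0.01 over all genes. In KO myoblasts, 7 of 9 members changed between Prol and D2, namely the same genes except *Eno3*, against 32.3% of all genes (17.1% upwards and 15.2% downwards), and their median was 0.33 against 0.02. By the log2 rule 5 of 9 were left in KO, and 8.18% of all genes. *Ckm* and *Pgam2* passed the filter on low counts only through the D2 groups, so the filter itself favoured a rise in them. This limit applies to the counts and medians of the members above.

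**Figure D1:**
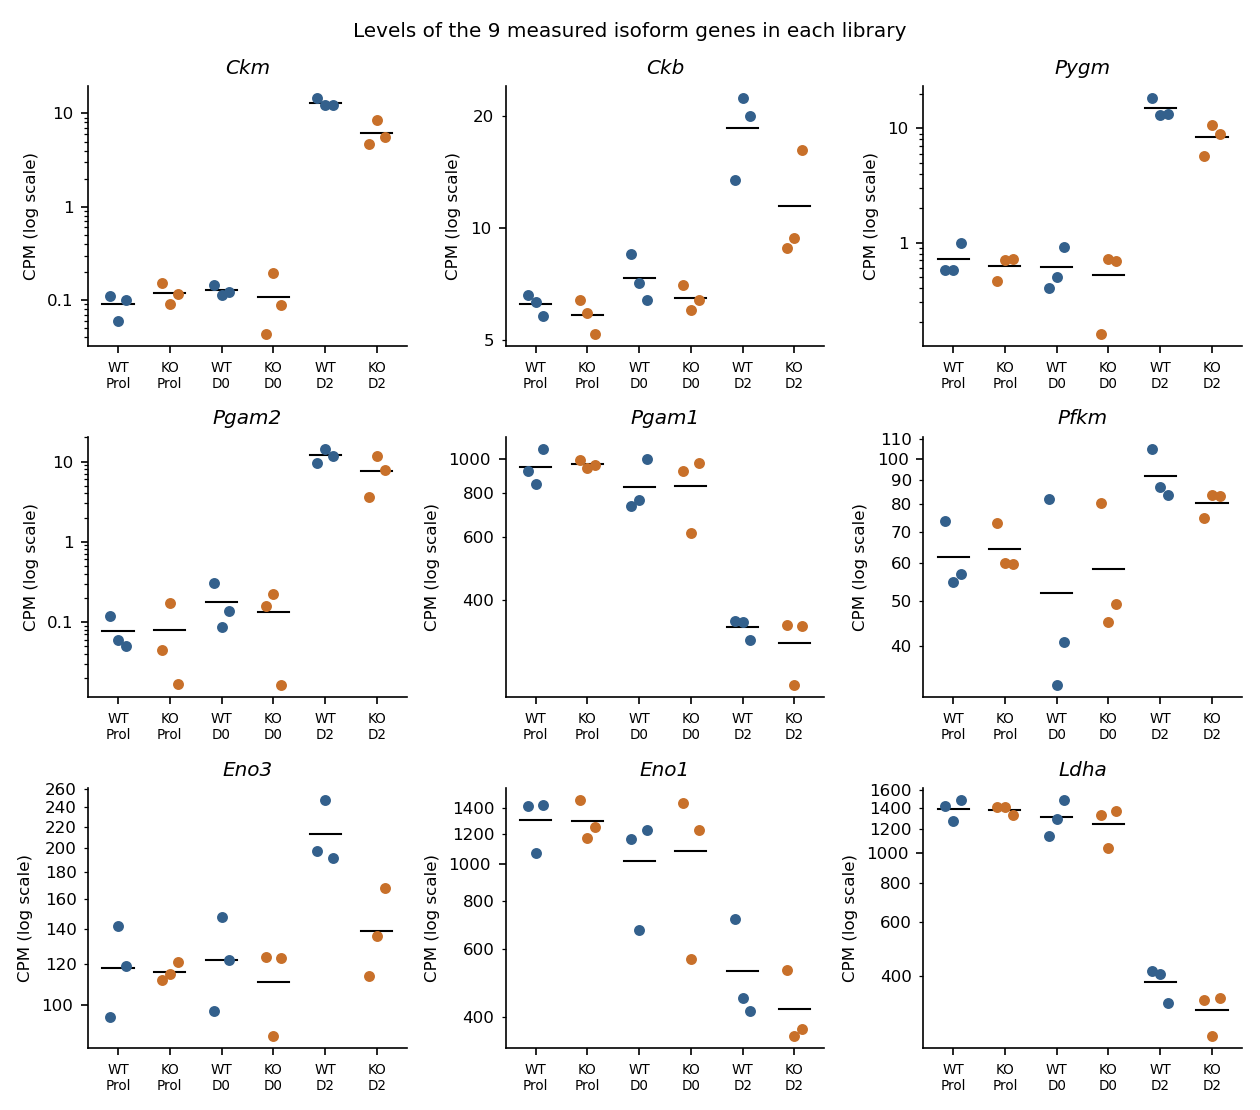
Levels of the 9 measured genes in CPM on a log scale, in each of the 18 libraries, by genotype (WT blue, KO orange) and state (Prol, D0, D2). Points are libraries, with replicates 1 to 3 from left to right, and bars are means of 3; *Ckm*, *Pygm* and *Pgam2* lie at or below 1 CPM in all Prol and D0 libraries and at 3.62 CPM or higher in all D2 libraries, whereas *Pgam1* and *Ldha* are lower in every D2 library than in any Prol or D0 library.

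*Ckm* (ENSMUSG00000030399, chromosome 7, 19404776 to 19422841 on the plus strand of GRCm38), the muscle subunit of creatine kinase, was close to the detection limit before differentiation. WT Prol libraries 1 to 3 were at 0.11, 0.0593 and 0.101 CPM and KO Prol libraries at 0.151, 0.0912 and 0.117. At D2 the WT libraries were at 14.7, 12.3 and 12.2 CPM and the KO libraries at 4.66, 8.45 and 5.54. No D2 library overlapped any Prol or D0 library, and the D0 libraries of both genotypes remained at 0.0428 to 0.194 CPM. The log2 fold change between D2 and Prol was 7.22 in WT (SE 0.48, adjusted p = 1.01e-07, limma) and 5.69 in KO (SE 0.48, adjusted p = 8.39e-07). Because the Prol value rests on 7 expected counts over 3 WT libraries, the fold was also computed from the summed counts, as 171-fold in WT (95% exact interval 83 to 427) and 61.5-fold in KO (33.3 to 129). These intervals cover counting error only. The KO rise met neither the 1.5-fold nor the log2 rule, since no KO library reached 10 CPM.

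*Ckb* (ENSMUSG00000001270, chromosome 12, 111669361 to 111672338, minus strand), the ubiquitous subunit, rose as well. WT libraries went from 6.62, 6.34 and 5.79 CPM in Prol to 13.5, 22.4 and 20 in D2, and KO libraries from 6.4, 5.93 and 5.18 to 8.82, 9.41 and 16.2. All D2 libraries were above all Prol and D0 libraries, of which the highest was at 8.52 CPM in WT D0. The log2 fold change was 1.55 in WT (SE 0.24, adjusted p = 0.000176, limma) and 0.93 in KO (SE 0.24, adjusted p = 0.00848). The KO rise depended on KO D2 replicate 3, without which it was 0.65 (adjusted p = 0.0532). Of the 50-base windows of the *Ckb* transcript, 21.9% occurred in other annotated genes, mainly in *Gm12892*, so a part of its reads could be shared with that copy.

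The muscle isoforms of the enzymes at the entry of glycogen and sugar into glycolysis differed in their starting levels. *Pygm* (ENSMUSG00000032648, chromosome 19, 6384399 to 6398459, plus strand) was at 0.576, 0.574 and 1 CPM in WT Prol and at 18.5, 13.1 and 13.3 in WT D2. In KO myoblasts it went from 0.465, 0.708 and 0.718 CPM to 5.71, 10.8 and 8.94. The groups did not overlap in either genotype, with log2 fold changes of 4.42 in WT (SE 0.51, adjusted p = 1e-05, limma) and 3.73 in KO (SE 0.51, adjusted p = 5.02e-05). *Pygb*, the brain isoform that is expressed widely, was at 58.8 ± 11.1 CPM in WT Prol and 62.3 ± 33.7 in WT D2 (SD, n = 3), with a log2 difference of -0.03 (95% interval -1.0 to 0.95).

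*Pfkm* (ENSMUSG00000033065, chromosome 15, 98092589 to 98132451, plus strand) was already well expressed in myoblasts. Its WT libraries were at 73.8, 54.8 and 56.9 CPM in Prol and at 105, 87.3 and 83.9 in D2, and its KO libraries at 72.9, 60.2 and 59.7 in Prol and at 74.8, 83.7 and 83.5 in D2. In both genotypes every D2 library lay above every Prol library, as it did for 23.0% of all genes in WT and 25.1% in KO. The log2 differences of 0.58 in WT (SE 0.28, adjusted p = 0.138, limma) and 0.33 in KO (SE 0.28, adjusted p = 0.416) did not pass the test. *Pfkm* was more variable at D0, with 33 to 82.2 CPM in WT. The other phosphofructokinase genes fell in WT between Prol and D2, *Pfkl* (liver form) from 119 ± 14 to 42.4 ± 3.66 CPM, a log2 change of -1.49 (adjusted p = 0.000907, limma), and *Pfkp* (platelet form) from 20.6 ± 4.21 to 10.8 ± 3.83, a log2 change of -0.97 (adjusted p = 0.02, limma; SD, n = 3 for each mean).

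*Pgam2* (ENSMUSG00000020475, chromosome 11, 5801640 to 5803733, minus strand), the muscle phosphoglycerate mutase, was at 0.12, 0.0593 and 0.0506 CPM in WT Prol and at 0.045, 0.173 and 0.0166 in KO Prol, the last of which is a library with 0 counts. At D2 it reached 9.45, 14.4 and 11.8 CPM in WT and 3.62, 11.8 and 7.76 in KO. The log2 fold change was 7.36 in WT (SE 0.93, adjusted p = 2.13e-05, limma) and 7.1 in KO (SE 0.93, adjusted p = 3.09e-05). From summed counts, with 6 counts over the Prol libraries of either genotype, the rise was 183-fold in WT (95% exact interval 84 to 501) and 131-fold in KO (60 to 358). The fitted KO value rested on single Prol libraries, since it became 7.98 when replicate 2 was left out and 6.29 when replicate 3, the library with 0 counts, was.

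*Pgam1* (ENSMUSG00000011752, chromosome 19, 41911923 to 41918660, plus strand), the ubiquitous form, moved the other way. WT libraries fell from 926, 851 and 1067 CPM in Prol to 349, 345 and 307 in D2, and KO libraries from 992, 944 and 963 to 340, 229 and 337. The log2 fold change was -1.5 in WT (SE 0.23, adjusted p = 0.000112, limma) and -1.7 in KO (SE 0.23, adjusted p = 3.64e-05), and the groups did not overlap. The pseudogene *Pgam1-ps2* held 41.5% of its 50-base windows, so the division of its reads is uncertain.

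The enolase genes started from very different levels. *Eno3* (ENSMUSG00000060600, chromosome 11, 70657202 to 70662513, plus strand), the muscle enolase, was at 95.1, 142 and 119 CPM in WT Prol and at 198, 248 and 192 in WT D2, a log2 fold change of 0.85 (SE 0.21, adjusted p = 0.00648, limma) between groups that did not overlap. KO libraries were at 112, 115 and 121 CPM in Prol and at 114, 136 and 168 in D2. These overlapped, and the difference of 0.25 (95% interval -0.21 to 0.7, adjusted p = 0.427, limma) did not pass. Whether the rise in WT differs from that in KO is given by the interaction below.

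*Eno1* (ENSMUSG00000063524, chromosome 4, 150236721 to 150248879, plus strand), the ubiquitous enolase, fell from 1420, 1073 and 1429 CPM in WT Prol to 718, 448 and 413 in WT D2. In KO it fell from 1474, 1170 and 1252 CPM to 531, 355 and 372. The log2 fold change was -1.34 in WT (SE 0.35, adjusted p = 0.00798, limma) and -1.65 in KO (SE 0.35, adjusted p = 0.00186). *Eno1b*, a retrogene that holds 70.5% of the 50-base windows of *Eno1*, fell alongside it from 658 ± 157 to 245 ± 80.2 CPM in WT (SD, n = 3), and since the 2 genes share reads, their individual levels are uncertain. *Eno2*, the neuronal enolase, rose from 3.94 ± 0.837 to 27.6 ± 8.04 CPM in WT (SD, n = 3), a log2 change of 2.78 (adjusted p = 0.000229, limma), and by 3.07 in KO (adjusted p = 9.8e-05, limma).

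*Ldha* (ENSMUSG00000063229, chromosome 7, 46841475 to 46855627, plus strand) is the muscle-type subunit by name, but it fell the most of all members. WT libraries went from 1421, 1269 and 1482 CPM in Prol to 416, 407 and 328 in D2, and KO libraries from 1409, 1408 and 1324 to 335, 255 and 340. The log2 fold change was -1.86 in WT (SE 0.21, adjusted p = 6.73e-06, limma) and -2.17 in KO (SE 0.21, adjusted p = 1.99e-06). *Ldhb*, the heart-type subunit, rose in WT from 57.2 ± 13.2 to 94.8 ± 19.6 CPM (SD, n = 3), a log2 change of 0.73 (adjusted p = 0.0265, limma), and differed by 0.26 in KO (adjusted p = 0.451, limma).

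**Figure D2:**
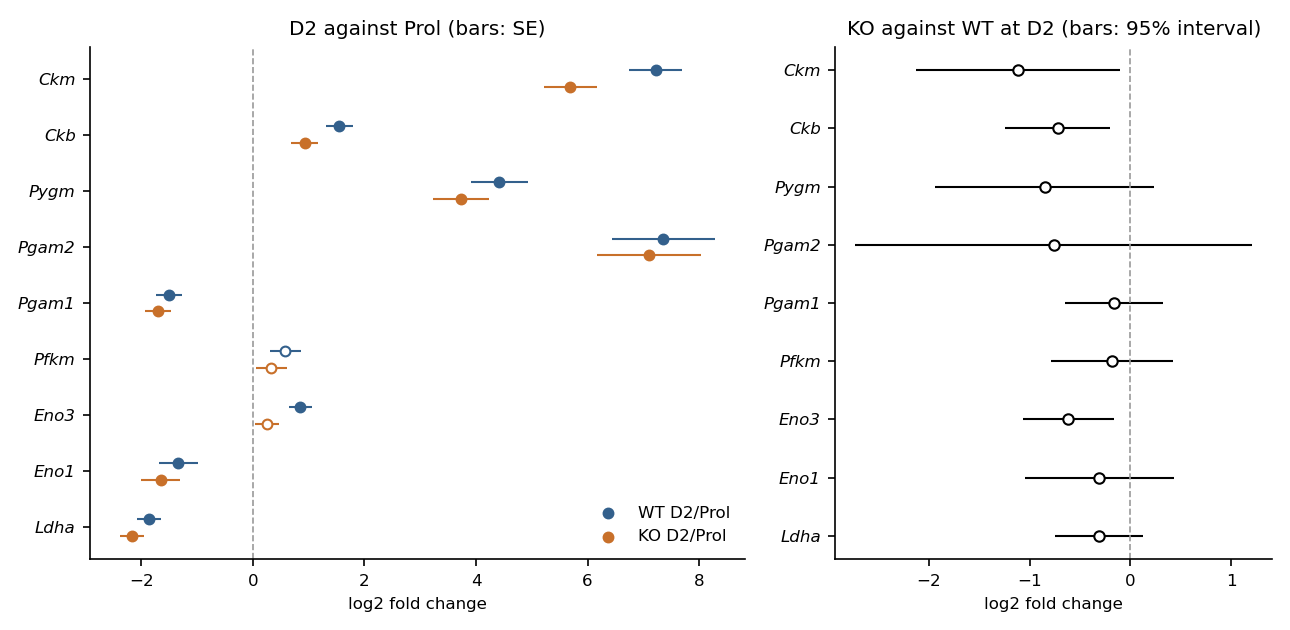
Log2 fold changes of the 9 genes fitted with limma, between D2 and Prol in WT (blue) and KO (orange) on the left, with bars for the SE and filled points for an adjusted p-value under 0.05, and between KO and WT at D2 on the right, with bars for the 95% interval. On the left *Ckm* and *Pgam2* lie farthest to the right and *Ldha* farthest to the left; on the right all 9 points lie below 0, and no adjusted p-value is under 0.05.

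Between confluence and D2 the members moved as between Prol and D2. In WT, 8 of 9 members changed against 26.0% of all genes, and in KO 7 of 9 against 28.3%. These counts include *Ckm* and *Pgam2*, with the same limit from the filter. *Ckm* rose by 6.69 on the log2 scale in WT and 6.06 in KO, *Pgam2* by 6.26 and 6.39, and *Pygm* by 4.7 and 4.25. In KO, the *Pgam2* value was 7.1 without KO D0 replicate 2 and 5.21 without KO D0 replicate 3, and the *Pygm* value was 3.53 without KO D0 replicate 1, all still past the threshold. *Pfkm* passed in WT at 0.93 (SE 0.28, adjusted p = 0.0236, limma), but not without WT D0 replicate 2 (0.66, adjusted p = 0.115), WT D0 replicate 3 (0.81, adjusted p = 0.101) or WT D2 replicate 1 (0.83, adjusted p = 0.0692). *Eno1* was at 672 CPM in WT D0 replicate 2 and 567 in KO D0 replicate 2, well below the 1167 to 1445 of the other D0 libraries. Its difference between D2 and D0 was -0.95 in WT (adjusted p = 0.0558, limma), and -1.23 without WT D0 replicate 2 (adjusted p = 0.0266) or -1.2 without WT D2 replicate 1 (adjusted p = 0.029). In KO, *Eno1* passed at -1.28 (adjusted p = 0.0117), but not without KO D0 replicate 1 (-1.02, adjusted p = 0.0553) or KO D0 replicate 3 (-1.13, adjusted p = 0.06). *Ckb* passed in KO at 0.77 (adjusted p = 0.0274), but not without KO D0 replicate 2 (0.72, adjusted p = 0.0657), KO D0 replicate 3 (0.76, adjusted p = 0.077) or KO D2 replicate 3 (0.49, adjusted p = 0.15). *Eno3* in WT, at 0.81 (adjusted p = 0.0109), missed the threshold without WT D2 replicate 2 (0.69, adjusted p = 0.0513). With the replicate number as a block, *Eno1* passed in WT, at -0.95 (adjusted p = 0.00229, limma), and *Pfkm* also passed in KO, at 0.52 (adjusted p = 0.0467, limma).

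Reaching confluence itself was not accompanied by a detected change in these genes. Between Prol and D0, 0 of 9 members passed in either genotype, and 0 had an unadjusted p-value under 0.05 in limma. Few genes of any kind did, with 1 of 17672 in WT (0.00566%) and 0 in KO at the adjusted threshold, and 2.17% and 1.12% at the unadjusted one. *Ckm* was higher in every WT D0 library than in every WT Prol library, but all of these had 4 or fewer expected counts, and 3.10% of all genes showed such a separation.

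The balance of isoforms was measured as the log2 ratio of 2 genes within each library, which does not depend on the scaling of libraries (see the plot of isoform ratios). *Ckm*/*Ckb* was at -6.16 ± 0.5 in WT Prol, -5.63 ± 0.34 in KO Prol, -0.49 ± 0.53 in WT D2 and -0.87 ± 0.7 in KO D2 (SD, n = 3). *Pgam2*/*Pgam1* was at -13.69 ± 0.73 and -14.22 ± 1.71 in Prol and at -4.83 ± 0.33 and -5.42 ± 1.14 in D2, in WT and KO respectively. *Eno3*/*Eno1* was at -3.47 ± 0.5 and -3.48 ± 0.2 in Prol and at -1.27 ± 0.53 and -1.58 ± 0.56 in D2. All 3 ratios shifted towards the muscle isoform and in none did the Prol and D2 libraries of a genotype overlap.

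The shift from Prol to D2, over both genotypes, was 5.22 for *Ckm*/*Ckb*, 2.05 for *Eno3*/*Eno1* and 8.83 for *Pgam2*/*Pgam1*. For other pairs it was 4.05 for *Pygm*/*Pygb*, 1.99 for *Pfkm*/*Pfkl*, 1.4 for *Pfkm*/*Pfkp* and -2.51 for *Ldha*/*Ldhb*. Each had the same direction in 6 of 6 pairs of same-numbered libraries and an exact two-sided permutation p = 0.005, with labels permuted within genotype, which is the smallest this design allows (0.005 after adjustment over 7 pairs). With 1 CPM added to each value, the shift was 2.05 for *Ckm*/*Ckb* and 4.83 for *Pgam2*/*Pgam1*, because *Ckm* and *Pgam2* were under 1 CPM in Prol. *Ldha*/*Ldhb* was the pair that moved away from its muscle-type form. In the creatine kinase pair, the log2 change of *Ckm* exceeded that of *Ckb*, and both genes rose. In the *Pfkm* pairs the ratio rose while *Pfkm* itself did not pass in the fit without a block, with *Pfkl* and *Pfkp* falling.

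**Figure D3:**
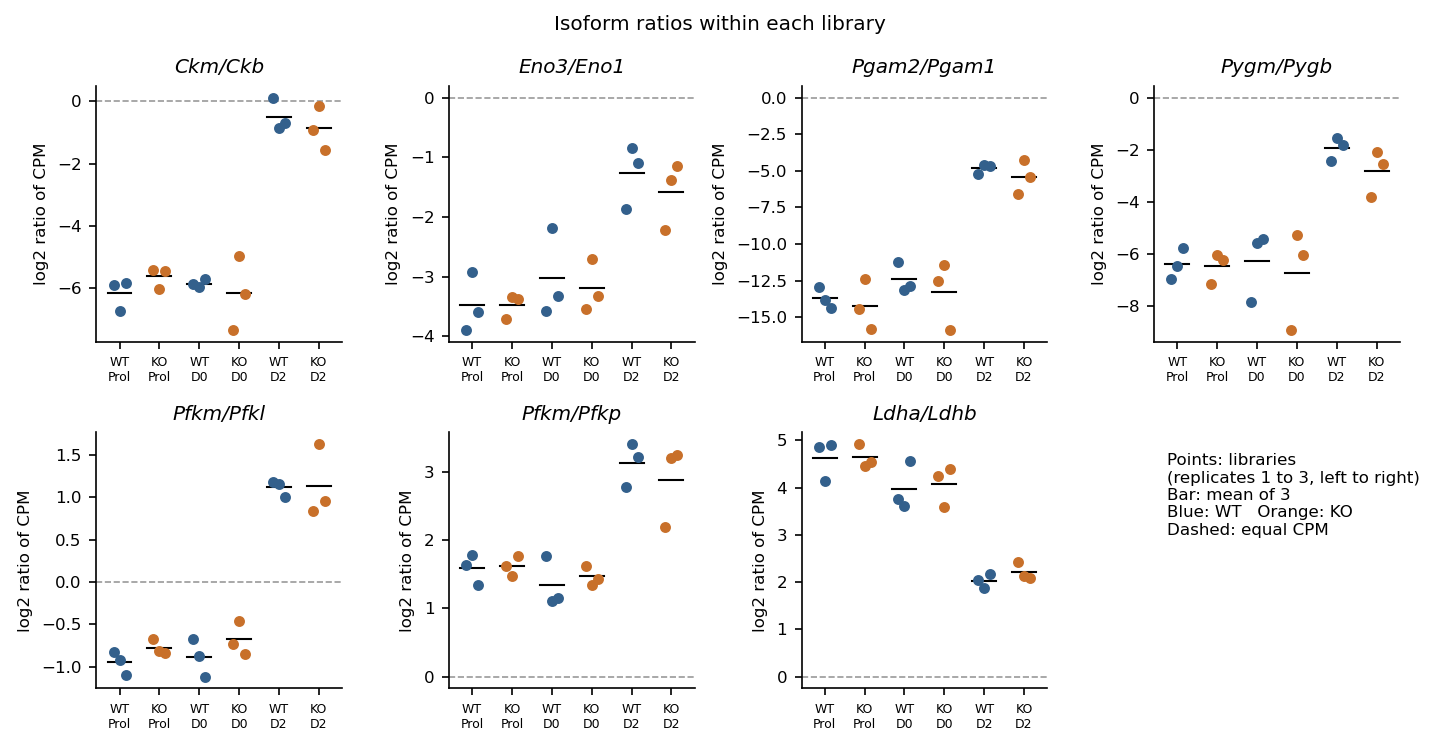
Log2 ratio of the CPM of 2 isoform genes within each library for 7 pairs, by genotype (WT blue, KO orange) and state. Points are libraries, bars are means of 3 and the dashed line marks equal CPM; 6 of the 7 ratios are higher in D2 than in Prol and *Ldha*/*Ldhb* is lower, and WT and KO libraries overlap at D2 in each of the 7 pairs.

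A comparison of levels between genes needs their transcript lengths, and CPM per kilobase of the longest principal transcript was used for it. By this measure *Pgam2* made up 7.01 ± 1.4% of *Pgam1* and *Pgam2* together in WT D2 and 5.55 ± 3.88% in KO D2 (SD, n = 3), from 0.0174 ± 0.00903% in WT Prol. *Eno3* reached 35.2 ± 8.02% of *Eno1* and *Eno3* in WT D2 and 30.6 ± 7.84% in KO D2, and *Pygm* 26.4 ± 5.87% and 17.4 ± 7.89% of *Pygm* and *Pygb*. With *Eno1b* and *Eno2* counted as well, the *Eno3* share was 25.9 ± 6.45% in WT D2 and 21.4 ± 5.92% in KO D2. In these families the ubiquitous form was still the larger part at D2 in every library. *Ckm* made up 28.1 ± 7.67% of *Ckm* and *Ckb* in WT D2 and 23.4 ± 8.59% in KO D2 with a *Ckm* transcript of 2742 bases, and 42.8 ± 9.05% and 36.7 ± 11.1% when the transcript was limited to the 1415 bases within the RefSeq gene. With this shorter transcript *Ckm* was the larger part in 1 library, at 53.1% in WT D2. Apart from *Ldha*, only *Pfkm* was on average a muscle form in the majority, at 69.6 ± 1.21% of the phosphofructokinase genes in WT D2 and 68.9 ± 6.18% in KO D2, from 36.7 ± 2.25% in WT Prol. *Ldha* fell from 94.7 ± 1.59% of *Ldha* and *Ldhb* in WT Prol to 75.1 ± 1.92% in WT D2.

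**Figure D4:**
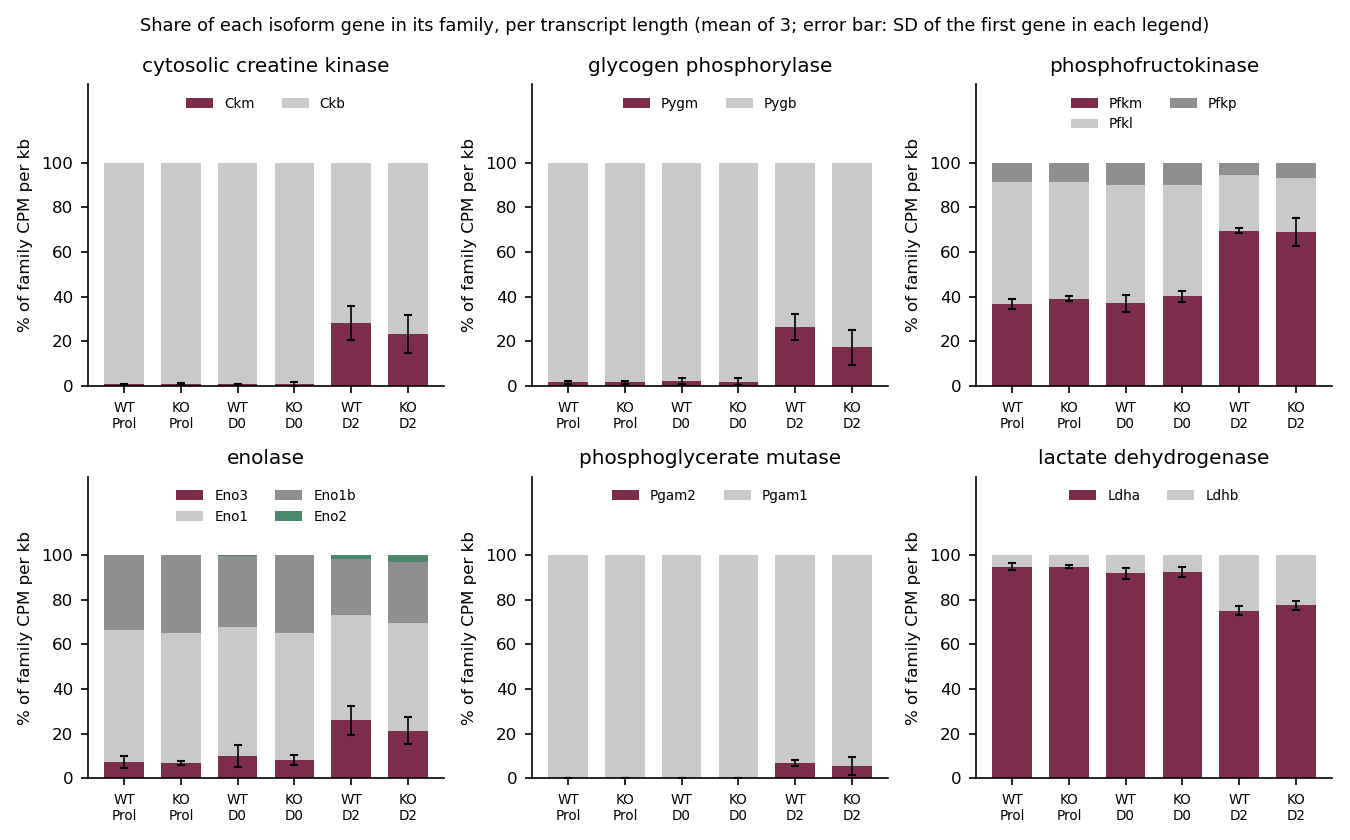
Share of each gene in the summed CPM per kilobase of its enzyme family, in percent, as means of 3 libraries in each group, with error bars for the SD of the muscle-type gene. Muscle-type genes are in dark red, and their shares at D2 run from 5.55% for *Pgam2* in KO to 77.4% for *Ldha* in KO; the *Ckm* share is drawn with the transcript of 2742 bases.

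The study asked how loss of LAP2α bears on myogenic gene expression, and reported genes that differed between KO and WT at D2. Its model had a block for the sequencing lane, and its p-value under 0.05 was not described as adjusted. The adjusted counts that follow differ from that in threshold and model. In KO against WT myoblasts at D2, 0 of 9 members passed an adjusted p-value under 0.05 in limma, as did 0 of all 17672 genes, and the adjusted p-value of each member was 1. All 9 members had a lower fitted value in KO, against 52.2% of all genes, and their median log2 difference was -0.62 against -0.01. *Ckm*, *Ckb* and *Eno3* had an unadjusted p-value under 0.05 and met the 1.5-fold rule, the former held by 1.09% of all genes in the lower direction and the latter by 0.255%. By the log2 rule 0 of 9 members passed, and 0.0736% of all genes. The study's own list for KO against WT at D2 was longer than either the 82 genes by the 1.5-fold rule or the 13 by the log2 rule. *Ckm* was 2.16-fold lower in KO (log2 -1.11, 95% interval -2.13 to -0.1, unadjusted p = 0.0337 from limma), *Ckb* 1.65-fold lower (log2 -0.72, -1.24 to -0.2, unadjusted p = 0.00941) and *Eno3* 1.53-fold lower (log2 -0.62, -1.07 to -0.16, unadjusted p = 0.011). With 1 CPM added to each value, *Ckm* passed the adjusted threshold (log2 -0.99, adjusted p = 0.0155, limma). The fit shares its spread over all 6 groups, and the added CPM leaves the Prol and D0 libraries of *Ckm* (0.0428 to 0.194 CPM) nearly alike. That pass therefore does not measure the spread of the D2 libraries alone. With the replicate number as a block, *Ckm* did not pass (log2 -1.11, adjusted p = 0.929, limma).

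In 4 members, *Ckm*, *Pygm*, *Pfkm* and *Eno3*, every KO D2 library was below every WT D2 library, as it was for 3.81% of all genes. *Pygm* differed by -0.85 on the log2 scale (95% interval -1.94 to 0.24) and *Pfkm* by -0.18 (-0.79 to 0.42). *Pgam2* differed by -0.76 with a wide interval (-2.73 to 1.21) and overlapping libraries. Because the fit shares its spread over all 6 groups, the intervals of *Pgam2* and *Ckm* also carry the low counts of their Prol and D0 libraries. The 3 members that fall in differentiation were also fitted lower in KO, with -0.31 for *Eno1* and *Ldha* and -0.16 for *Pgam1*, and overlapped with WT. KO D2 replicate 1 held the lowest KO value of *Ckm*, *Ckb*, *Pygm*, *Pgam2*, *Pfkm* and *Eno3*. The sums of the differentiating muscle markers likewise did not overlap between WT D2 and KO D2 (2653 to 5369 against 1577 to 2007 CPM), and their part in the differences of the members was not tested.

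The isoform ratios were also compared between genotypes. At D2, KO minus WT was -0.39 for *Ckm*/*Ckb*, -0.31 for *Eno3*/*Eno1* and -0.59 for *Pgam2*/*Pgam1*, with exact permutation p = 0.4, 0.5 and 0.6, where 3 against 3 libraries cannot go below 0.1. Of the other pairs, *Pygm*/*Pygb* was at -0.86 (exact permutation p = 0.2) and lower in KO in 3 of 3 same-numbered pairs. The adjusted p-values over the 7 pairs were 0.7 to 1, and no ratio was separated between genotypes.

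Whether the effect of the knockout differed between D2 and Prol was tested as an interaction in limma. For *Ckm* the KO effect was lower at D2 by 1.54 on the log2 scale (log2 -1.54, 95% interval -2.97 to -0.1, unadjusted p = 0.0373, adjusted p = 1), and for *Eno3* the value was -0.61 (-1.25 to 0.04, unadjusted p = 0.0625). No member passed at the adjusted threshold, as did 0 of all genes, and 0.945% of all genes had an unadjusted p-value under 0.05. By the 1.5-fold rule and by the log2 rule 1 member (*Ckm*) passed, against 0.232% and 0.0905% of all genes. In Prol and at D0, 0 of 9 members differed between KO and WT, with 0 at an unadjusted p-value under 0.05 in limma, against 1.11% and 1.47% of all genes, and in neither state did the 3 KO libraries of a member all lie outside the range of WT on 1 side. Over these comparisons and those between Prol and D0, the fitted log2 differences of the members ran from -0.89 to 1.1, both for *Pgam2*, which had few counts there.

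The remaining genes of the pathways were taken from lists of glycolysis, transport, glycogen, creatine and hypoxia genes without the members. Of 16 other glycolytic enzymes, 2 rose and 7 fell in WT between Prol and D2, and 1 rose and 8 fell in KO, with medians of -0.87 and -0.98. *Pgk1* (phosphoglycerate kinase) fell by 1.49 in WT and 1.64 in KO on the log2 scale, *Pfkl* by 1.49 and 1.59, and *Pkm* (pyruvate kinase) by 1.13 and 1.19, whereas *Eno2* rose by 2.78 and 3.07. The count in WT rested on single libraries, since 3 genes passed in place of 9 without WT Prol replicate 1, WT Prol replicate 3 or WT D2 replicate 2, while the loss of WT D2 replicate 3 left 4. In KO 5 passed without KO D2 replicate 2. Of 5 transporters, the monocarboxylate transporter genes *Slc16a3* and *Slc16a1* fell in WT, by 2.38 and 1.38, and in KO, by 2.59 and 1.32, while *Slc2a4*, the gene of the insulin-responsive glucose transporter, rose by 2.09 and 1.71 at levels under 2 CPM (named after its values were seen). The count in WT was 1 without WT Prol replicate 1, and in KO 1 without KO Prol replicate 3 or KO D2 replicate 3.

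Of 14 genes of glycogen metabolism, 12 were measured, of which 4 rose and 1 fell in WT and 4 rose and 0 fell in KO. *Phkb* and *Phka2*, subunits of phosphorylase kinase, which activates the enzyme encoded by *Pygm*, rose by 1.25 and 1.17 in WT and by 1.42 and 1.14 in KO. *Ugp2*, which makes the glucose donor for glycogen, rose by 0.95 in WT and 0.9 in KO. Named after their values were seen, *Ppp1r3c*, a glycogen-targeting phosphatase subunit, rose by 4.17 and 3.79, and *Phkg1*, the muscle catalytic subunit of phosphorylase kinase, fell by 1.66 in WT. Of 6 measured genes of creatine and adenylate metabolism, 3 rose in WT and 2 in KO. *Gatm* and *Gamt*, the enzymes of creatine synthesis, rose by 3.08 and 1.19 in WT and by 2.35 and 0.93 in KO, and *Ampd1*, the muscle AMP deaminase, named after its values were seen, by 2.25 in WT. The count in KO was 1 without KO Prol replicate 3.

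Hypoxia-responsive genes were examined because several glycolytic genes belong to that response as well. Of 12, 3 rose and 2 fell in WT and 2 rose and 2 fell in KO, with medians of 0.4 and 0.08. *Pdk1* (pyruvate dehydrogenase kinase) fell by 0.99 in WT and 0.96 in KO, and *Egln3* and *Kdm3a* rose in WT, by 0.97 and 0.62. The others that passed in WT, *Car9* (2.74) and *Ankrd37* (-1.36), were named after their values were seen. In KO against WT, no gene of the 5 lists passed the adjusted threshold in any state, and at D2 only *Egln3* (-0.72, 95% interval -1.19 to -0.26) and *Adm* (1.93, 0.21 to 3.66), 2 of the 12 hypoxia-responsive genes, had an unadjusted p-value under 0.05 in limma. The lists do not overlap with the members, and their counts can be read against the 30.7% and 32.3% of all genes that changed. When replicate numbers were blocked, the genes that changed in KO were 12 in place of 9 for the glycolytic enzymes, 4 in place of 3 for the transporters, 6 in place of 4 for glycogen and for hypoxia, and 3 in place of 2 for the creatine list.

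**Figure D5:**
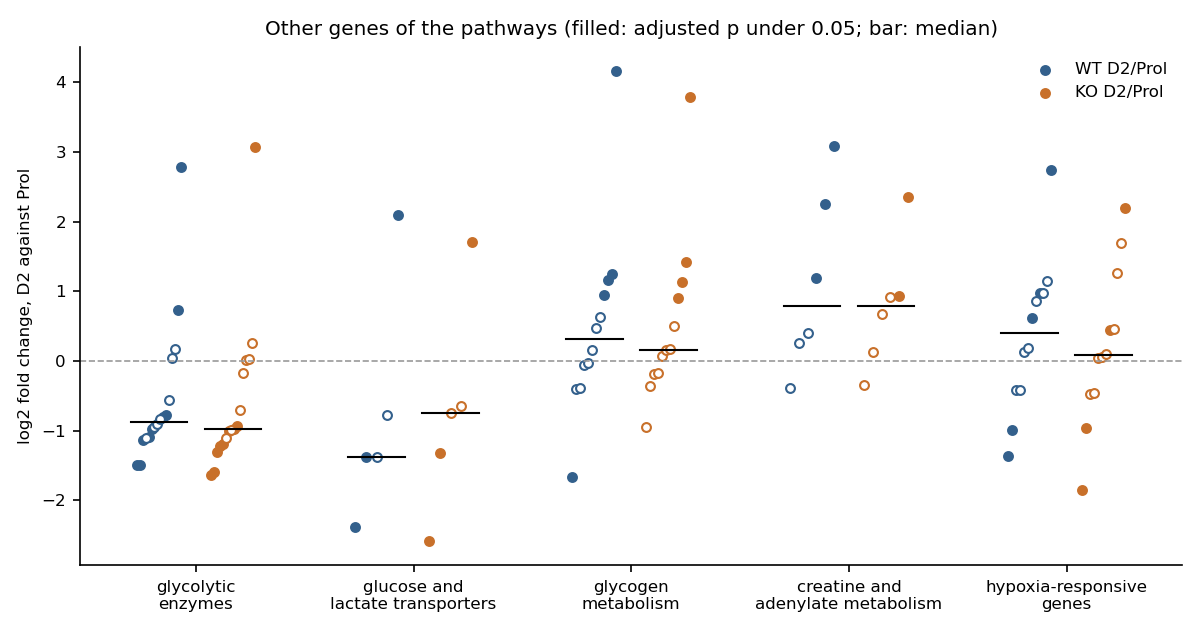
Log2 fold change between D2 and Prol of each measured gene of the 5 pathway lists, in WT (blue) and KO (orange). Filled points have an adjusted p-value under 0.05 and bars are medians; the glycolytic enzymes have medians of -0.87 and -0.98, while the creatine and adenylate list has a median of 0.8 in WT and 0.79 in KO.

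The genes most like *Ckm* and *Ckb* across the 18 libraries were sought among 10759 genes with at least 10 CPM in a library. The 3 with the highest Pearson correlation of log2 CPM to *Ckm* were *Tnnc1* (troponin C, r = 0.993), *Myom2* (myomesin, r = 0.99) and *Stac3* (an excitation-contraction coupling protein, r = 0.989). *Tnnc1* went from 1.66 CPM on average in WT Prol to 301 in WT D2 and 147 in KO D2, and *Myom2* from 0.768 to 117 and 61.3. Those most like *Ckb* were *Wnt9a* (a secreted Wnt ligand, r = 0.938), *Pik3r3* (a regulatory subunit of phosphoinositide kinase, r = 0.935) and *Retreg1* (a receptor for autophagy of the endoplasmic reticulum, r = 0.928). *Pik3r3* was at 21.7 CPM in WT Prol, 74.5 in WT D2 and 56.8 in KO D2. The 18 libraries fall into the D2 libraries and the others, so these correlations describe mainly the shared step between them.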

How the data were processed

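Strand-specific single-end libraries of polyadenylated RNA had been trimmed by the authors with cutadapt, mapped with NextGenMap to the GRCm38 transcriptome, quantified with RSEM, summed to genes with tximport, scaled with edgeR's TMM factors and passed to limma-voom. The authors deposited CPM, computed from expected counts with 0.5 added and the library total times its TMM factor. Here the expected counts were recovered from them (26437823 to 41619016 per library; TMM factors 0.909 to 1.177). Only 36.0% to 49.1% of the counts under 20 were within 0.01 of a whole number, as RSEM divides reads between transcripts, so no test for whole reads was run. The least different replicates had a chi-square of 34.6 per degree of freedom, so none was a repeat of another. These were WT D2 replicates 2 and 3, while replicate 1 differed from them by 441.6 and 334.7. In KO D2 replicate 1 differed from replicates 2 and 3 by 489.8 and 336.6, and those from each other by 74.0. At D0, replicates 1 and 2 differed by 457.8 in WT and 449.3 in KO. The part of these differences in the results was not tested.

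Genes were kept if all 3 libraries of any group exceeded 5 expected counts, which left 17672, and their log2 CPM were fitted with limma 3.58.1 in R 4.3.3 (lmFit, eBayes with trend; 1 factor of 6 groups, 18 libraries, Benjamini-Hochberg adjustment over all genes). A gene is said to rise, fall or change with an adjusted p-value under 0.05. The study also blocked on the sequencing lane, which the labels do not give. Isoform ratios were compared with exact permutation tests, and Python 3.11.15 was used for these. On simulated data with 100 genes changed 2-fold and 100 changed 4-fold in WT D2/Prol, among 17672 genes, the fit called 74 and 100 of them. It also called 9 of the 17472 unchanged genes. The simulated libraries were independent, had the same dispersion for every gene, and had no changed genes at low mean CPM. These shares therefore do not carry over to correlated replicates or to genes near the detection limit. Gene positions and transcript lengths are from GENCODE on GRCm38, and promoters from RefSeq on GRCm38.p6. Symbols were matched for 19072 of 19153 genes.

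Members, gene lists and the rule for named genes were chosen with earlier results of these data known. All members are named, with their paralogues, up to 4 genes per list with the largest changes in WT D2/Prol at 10 CPM or more, and the 3 genes most correlated with *Ckm* and with *Ckb*. Whether replicate numbers pair libraries was checked by the correlation of same-numbered libraries' deviations from their group means, which was over 0.1 for all 3 replicates in 7 of the 9 comparisons of groups. The exceptions were WT D2/Prol and WT D2/D0, where replicate 3 was at 0.0393 and 0.01. For the others the block is given where it changes the call of a member or the count of a list.

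As alternatives, each library was left out in turn, 1 CPM was added, the filter was dropped, the fit was limited to the groups compared, the replicate number was a fixed or random block, voom weights or the 1.5-fold rule (unadjusted p-value under 0.05, 10 CPM in a library) were used, and scaling was by median of ratios or by library totals. Summing *Eno1* with *Eno1b*, a shorter *Ckm* transcript and the log2 rule, which is the one in the methods of the study, were alternatives chosen after seeing the data.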

Additional observations from a re-analysis of the deposited data

How the results depend on the processing

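The number of members that changed between states stayed within 1.5 times, with 6 to 9 for WT D2/D0 and 5 to 8 for KO D2/D0, except by the log2 rule, whose higher limit on the change left 4 and 3. For KO/WT D2 it was 0 except with 1 CPM added (1, *Ckm*) and by the 1.5-fold rule (3), and for the KO effect between D2 and Prol it was 1 (*Ckm*) by the 1.5-fold and the log2 rule. With 1 CPM added, the log2 fold change between D2 and Prol was 3.68 in WT and 2.65 in KO for *Ckm*, 3.56 and 2.9 for *Pgam2* and 3.21 and 2.5 for *Pygm*, all still past the threshold (limma). *Ckm* in KO/WT D2, at -0.99, passed as well, with the limit on the shared spread given above. Leaving out single libraries gave -0.6 to 0.01 for the *Eno3*/*Eno1* ratio in KO minus WT at D2, turning its sign without KO D2 replicate 1, -0.26 to 0.02 for *Pgam1* in KO/WT D2 (without KO D2 replicate 2), and -1.07 to 0.62 for *Pgam2* in the interaction (without KO Prol replicate 2 or KO D2 replicate 1). The cause was not tested. In the 4 comparisons without a call (Prol to D0, and KO against WT in Prol and at D0), 43 of 400 alternative values of members changed sign and 0 passed. Library totals alone moved the median of all genes from -0.012 to 0.15 in WT D2/Prol and from 0.024 to 0.156 in KO D2/Prol, and no call or direction of a member between D2 and Prol changed.

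With the replicate number as a block, 9 members passed in WT D2/Prol and in WT D2/D0, the added ones being *Pfkm* (0.58, adjusted p = 0.0265, limma) and *Eno1* (-0.95, adjusted p = 0.00229, limma), although these libraries were not shown to be paired. As a fixed effect the block also gave 13 genes in place of 9 for the glycolytic enzymes in WT D2/Prol. There it gave 8 in place of 5 for the glycogen and for the hypoxia list and 5 in place of 3 for the transporters. An exact sign-flip permutation test gave p = 0.0312 for each of the 3 isoform ratios between D2 and Prol. This is the smallest p that 6 pairs allow, so it does not measure the size of a shift. Beside *Pfkm* in KO D2/D0 the fixed block changed no other call of a member.

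The depth limits *Ckm* and *Pgam2* before D2, where a library holds at most 9 counts, and 3 against 3 libraries keep the permutation p of an isoform ratio in KO against WT at 0.1 or higher.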
